A study of Mus musculus with 12 samples.

Results

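The comparison set mouse primary hepatocytes treated with a small interfering RNA (siRNA) against Cebpa (siCebpa) against hepatocytes treated with a control siRNA (siCon). Its members were the 3 siCebpa and 3 siCon libraries, paired by mouse number, out of 12 libraries in the series, and every gene that passed a filter on low counts. That filter kept 15090 of 55385 gene identifiers. Hepatocytes are the parenchymal cells of the liver, and these were isolated fresh from 3 mice, plated on collagen in Williams' E medium with 10% serum, 2 mM glutamine, 100 nM dexamethasone and 5% of an insulin, transferrin and selenium supplement, and harvested 48 h after knockdown. The series has 4 groups of 3 libraries: siCebpa, the double knockdown of Hnf4a and Cebpa (double), siHnf4a and siCon. The design names 3 mice and the library titles number the hepatocytes MPH1 to MPH3. That number is read here as the mouse, which the labels do not state outright, so that each mouse gave 1 library to each group. The main fit removes the level of each mouse. Its p-values are therefore set against the spread of group differences between the 3 mice, taken over all 12 libraries. All groups share the culture medium, dexamethasone included. The sources used here give no mouse strain, sex or age, no siRNA sequence and no number of siRNA duplexes for each target.

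C/EBPα, the protein product of Cebpa, is a basic leucine zipper transcription factor that binds DNA as a dimer with itself or with other C/EBP family members. In the liver it is known for driving genes of the differentiated hepatocyte, among them those of the urea cycle, glucose and lipid metabolism and plasma protein secretion, and for restraining proliferation. An siRNA guides the cleavage of the transcript it matches. Its seed, the bases near the 5′ end of the guide strand, can also pair with short complementary words in the 3′ untranslated region (3′ UTR) of other transcripts, as a microRNA does.

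Values below are CPM, read counts scaled to library size and composition, given in mouse order 1, 2 and 3, and means ± SD are over n = 3 libraries. Log2 fold changes are siCebpa over siCon with their standard error (SE), and genes are called by edgeR's quasi-likelihood test with mouse as a block at a Benjamini-Hochberg adjusted p below 0.05 over the 15090 genes. "Rose" and "fell" refer to called genes only.

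Cebpa itself (ENSMUSG00000034957, chromosome 7, 35119293 to 35121928, plus strand, GRCm38) was measured at 33.7, 30.3 and 26.1 CPM in siCebpa, against 179, 211 and 189 CPM in siCon. Every siCebpa library lay below every siCon library. The log2 fold change was -2.69 ± 0.13 (adjusted p = 2.15e-06), which left 15.5% of the siCon level. Cebpa averaged 94.2 ± 13.1 CPM in the double knockdown, so the single knockdown was deeper by 1.65 ± 0.12 on the log2 scale (adjusted p = 1.48e-05).

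Among the other family members, Cebpd, a stress- and cytokine-inducible C/EBP, had 119.6, 149 and 138 CPM in siCebpa against 84.6, 77.9 and 78.2 CPM in siCon, with no overlap. Its log2 fold change was 0.75 ± 0.13 (adjusted p = 0.00466). Ddit3, which encodes the stress-induced C/EBP homologous protein CHOP, had 46.1, 45.5 and 35.5 CPM in siCebpa against 30.6, 30.2 and 25.5 CPM in siCon (log2 0.56 ± 0.08, adjusted p = 0.00182). That call was lost without the mouse block (adjusted p = 0.0724). Cebpb, the C/EBP that shares many liver targets with Cebpa, had 356, 429 and 466 CPM in siCebpa against 333, 409 and 459 CPM in siCon. Its log2 difference was 0.06, with a 95% interval of -0.13 to 0.25 (adjusted p = 0.656). Cebpg, a partner without a strong activation domain, differed by -0.06 ± 0.08 (adjusted p = 0.656), and Cebpz, named with the family but not a leucine zipper protein, by 0.28 ± 0.10 (adjusted p = 0.085). Cebpe, the myeloid member, did not pass the low-count filter.

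**Figure D1:**
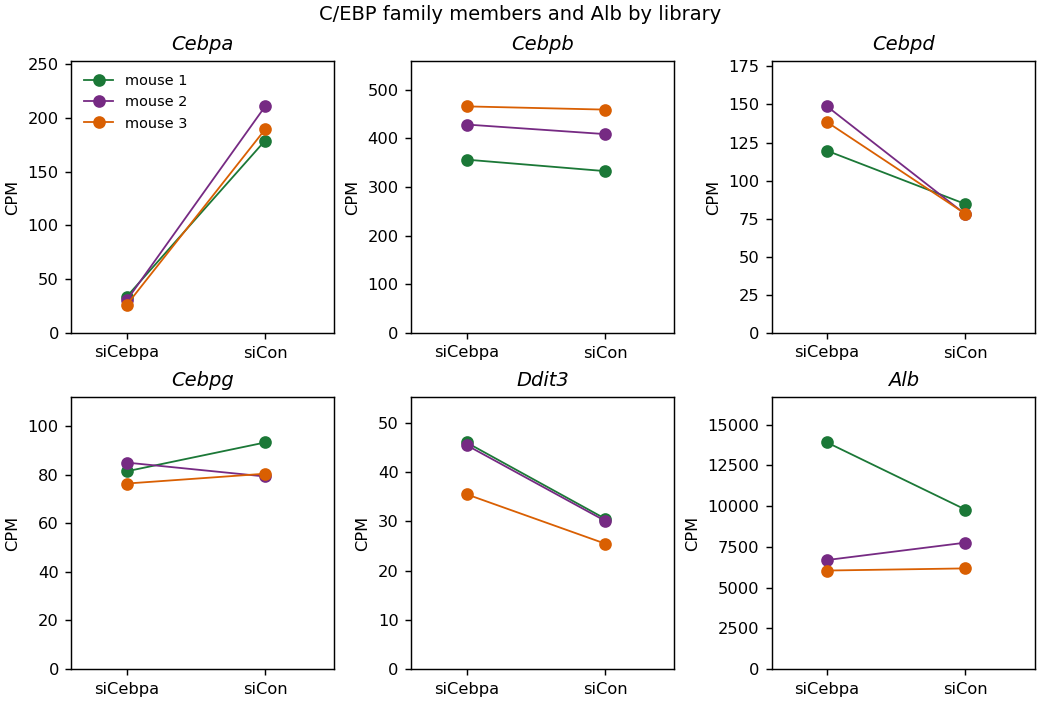
CPM of 5 C/EBP family genes and Alb in the 3 siCebpa and 3 siCon libraries, lines joining the libraries of 1 mouse. Cebpa is lower and Cebpd and Ddit3 are higher in siCebpa in every mouse, whereas Alb is higher in siCebpa in mouse 1 only.

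Alb, the albumin gene named in the title of the series, had 13907, 6688 and 6043 CPM in siCebpa against 9787, 7754 and 6174 CPM in siCon. The groups overlapped, and the log2 difference was 0.10 ± 0.16 with a 95% interval of -0.26 to 0.45 (adjusted p = 0.729). Without mouse 1's siCebpa library it was -0.08. Hnf4a, the nuclear receptor gene targeted in the other arms, had 191, 149 and 293 CPM in siCebpa against 144, 248 and 297 CPM in siCon, a log2 difference of -0.12 ± 0.25 (adjusted p = 0.776). Both genes also varied between mice within a group. A set of 12 hepatocyte identity markers summed to 29150 to 34258 CPM in siCebpa and 29939 to 35694 CPM in siCon. Most of that sum was Alb and the transferrin gene Trf, so it says little about the other markers. Within the set Apoa2 rose (log2 1.15) and Cps1 fell (-1.17), and the median was 0.0813.

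Across the transcriptome, 2542 genes were called (16.8% of those tested). They were 1318 that rose (8.73%) and 1224 that fell (8.11%), and the median log2 fold change of all tested genes was -0.0083. Falls were larger than rises. The median size of the change was 0.591 log2 units among the genes that fell and 0.393 among those that rose, and 263 genes fell by at least 2-fold where 92 rose by as much. The 2 groups did not overlap for 1114 of the genes that rose and 758 of those that fell, and for 23.7% of all genes tested. Total estimated counts were 23809523 to 23933735 per siCebpa library and 23731068 to 25008195 per siCon library. Mitochondrially encoded transcripts took 2.84 to 3.72% of counts in siCebpa and 2.88 to 3.12% in siCon.

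The balance of rises and falls depended on the scale. Of the calls on counts, 51.8% were rises. With limma on log2(TPM + 1), where the median of all genes sits at -0.12, 393 genes rose and 1731 fell, so that 18.5% were rises. Without the mouse block 444 genes rose (2.94%) and 260 fell (1.72%), and all 704 were also called with it. Leaving out 1 library left 668 rises and 666 falls without mouse 2's siCebpa library, 640 and 591 without mouse 3's, 790 and 793 without mouse 2's siCon library, and 552 and 593 without mouse 3's.

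The 12 largest rises in genes averaging at least 10 CPM were of mixed kinds. The pseudogene Rpl10a-ps1, described last, had the largest fold. Gsta1 and Gsta2, alpha-class glutathione S-transferases that join glutathione to electrophiles, were among them with 2 neighbouring genes of the same cluster, Gm10639 and Gm3776. Gsta1 (chromosome 9, 78230656 to 78242684) had 312, 353 and 663 CPM in siCebpa against 81.0, 87.9 and 145 CPM in siCon. Its log2 fold change was 2.05 ± 0.10 (adjusted p = 2.74e-06), and that of Gsta2 was 2.08 ± 0.13. Gm10639 changed by 2.12 ± 0.10 and Gm3776 by 1.78 ± 0.10. The 4 genes lie between 78230656 and 78355788 on chromosome 9 and are close in sequence, so reads could have been divided among them, and they count here as 1 cluster.

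Cbr3, a carbonyl reductase, had 45.2, 41.1 and 40.6 CPM in siCebpa against 17.1, 9.19 and 10.7 CPM in siCon (log2 1.79 ± 0.18, adjusted p = 0.000249). Blvrb, which reduces biliverdin and flavins, had 341, 291 and 348 CPM in siCebpa against 151, 108 and 142 CPM in siCon (1.29 ± 0.11, adjusted p = 0.00016). Neither pair of groups overlapped. Il1f9, the gene of the epithelial cytokine interleukin-36γ, had 18.4, 29.4 and 24.4 CPM in siCebpa against 7.34, 3.91 and 5.70 CPM in siCon (2.04 ± 0.30, adjusted p = 0.00181). Ces2c, a carboxylesterase, had 41.0, 26.5 and 32.0 CPM in siCebpa against 13.2, 11.3 and 13.9 CPM in siCon (1.38 ± 0.17). Cyp2a5, a coumarin hydroxylase, rose by 1.44 ± 0.18, and its near-identical neighbour Cyp2a4 by 1.23 ± 0.10, so the division of reads between them is uncertain. Sdf2l1, a component of chaperone complexes in the endoplasmic reticulum (ER), rose by 1.39 ± 0.15.

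Among the 12 entries, 2 were processed pseudogenes, copies of spliced transcripts. Rpl10a-ps1 (chromosome 1, 64993951 to 64994604) had 1088, 650 and 804 estimated counts in siCebpa and 0 in each siCon library. That is at least 301-fold higher against a floor of 3 counts per library. The value was unsteady across the series, with 669, 560 and 58 counts in the double knockdown and 0, 53 and 611 in siHnf4a, and reads of its parent ribosomal gene can be assigned to it. Its call was lost without mouse 2's siCebpa library and without the siCon library of mouse 2 or mouse 3. Gm10443 had 21.6, 16.4 and 32.5 CPM in siCebpa against 3.65, 7.62 and 9.10 CPM in siCon (log2 1.74 ± 0.40, adjusted p = 0.0154), and was not called without mouse 3's siCebpa library.

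**Figure D2:**
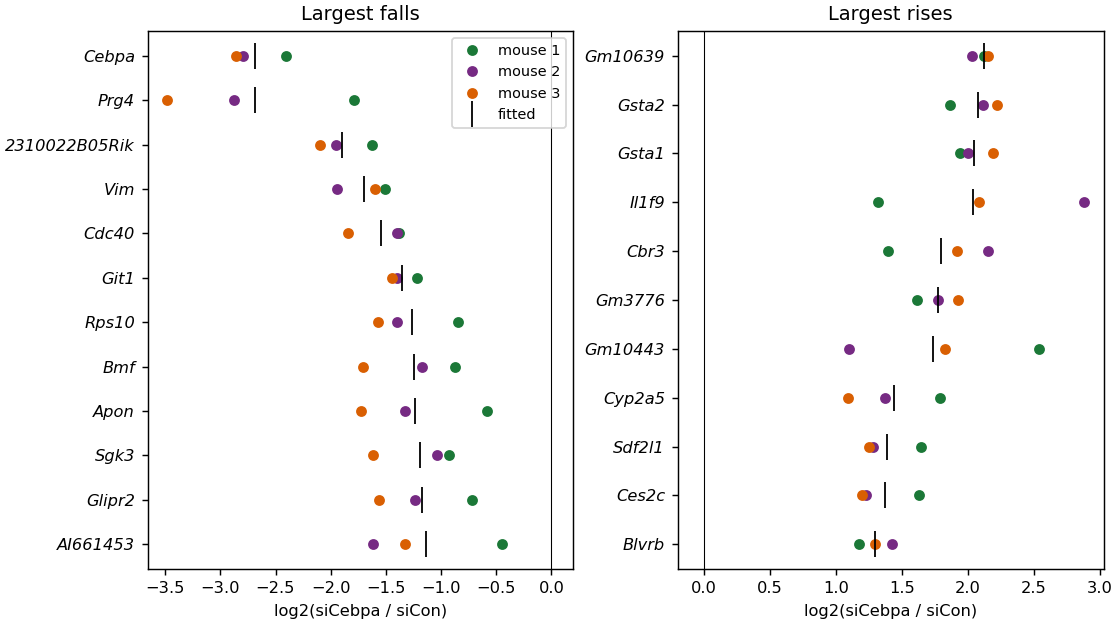
Log2 ratio of siCebpa to siCon in each of the 3 mice for the 12 largest falls and 11 of the 12 largest rises, with the fitted value as a vertical bar. Only genes called with and without the mouse block, averaging at least 10 CPM and with 1 sign in 3 mice, were eligible. Rpl10a-ps1 is left out because it had no count in siCon. All points lie on 1 side of 0 within a gene, and the 3 mice are closest for Gm10639 and furthest apart for Prg4 and Il1f9.

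The redox genes moved together. Of 30 measured genes of the NRF2 pathway and thiol redox, 22 rose and 1 fell, against 8.73% and 8.11% of all genes, with a list median of 0.671. Without the block 17 rose and 1 fell. They covered glutathione synthesis, thioredoxin and peroxiredoxin recycling, and iron storage. Gclc, the catalytic subunit of the enzyme that limits glutathione synthesis, had 1453, 1323 and 1708 CPM in siCebpa against 517, 621 and 799 CPM in siCon (log2 1.22 ± 0.12, adjusted p = 0.000248). Srxn1, sulfiredoxin, which repairs oxidised peroxiredoxins, had 983, 1140 and 1040 CPM in siCebpa against 518, 432 and 415 CPM in siCon (1.21 ± 0.13, adjusted p = 0.000305). Both sets of libraries were well apart. Slc7a11, the cystine transporter, had 161, 143 and 126 CPM in siCebpa against 104, 41.1 and 53.5 CPM in siCon (1.16 ± 0.22, adjusted p = 0.00565). Ftl1, ferritin light chain and the most abundant gene of the list, averaged 6143 ± 973 CPM in siCebpa and 3937 ± 269 CPM in siCon (0.64 ± 0.11, adjusted p = 0.00466). The member that fell was Nfe2l2, which encodes the transcription factor NRF2 itself. It had 614, 533 and 505 CPM in siCebpa against 842, 709.7 and 763 CPM in siCon (-0.49 ± 0.11, adjusted p = 0.0159), a call kept in 2 of the 6 fits that leave out a library.

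Of 22 measured glutathione S-transferases 13 rose (59.1%, against 8.73% of all genes), with a list median of 0.572, and 8 rose without the block. Besides the alpha-class genes they included Gstm1, a mu-class enzyme, with 607, 467 and 522 CPM in siCebpa against 255, 253 and 198 CPM in siCon (1.18 ± 0.14, adjusted p = 0.000648). Gstp1, the abundant pi-class enzyme, had 2806, 3296 and 4159 CPM in siCebpa against 1958, 2228 and 2182 CPM in siCon (0.68 ± 0.11, adjusted p = 0.00248). Among 8 enzymes that supply NADPH, 4 rose. Taldo1 of the pentose phosphate pathway was the largest of them, with 328, 312 and 371 CPM in siCebpa against 193, 141 and 169.7 CPM in siCon (1.00 ± 0.12, adjusted p = 0.000599), and Pgd, 6-phosphogluconate dehydrogenase, changed by 0.75 ± 0.12.

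Protein folding in the ER formed the second set. Of 26 measured chaperones and folding enzymes 15 rose (57.7%, against 8.73% of all genes), with a list median of 0.325, and 11 rose without the block. Hspa5, which encodes the luminal chaperone BiP, had 1060, 1022 and 973 CPM in siCebpa against 705, 649 and 635 CPM in siCon (0.62 ± 0.07, adjusted p = 0.000522). Pdia4, a protein disulfide isomerase, had 181, 149.6 and 175 CPM in siCebpa against 91.7, 74.3 and 95.6 CPM in siCon (0.95 ± 0.07, adjusted p = 6.79e-05). Creld2 had 33.0, 30.7 and 31.2 CPM in siCebpa against 15.4, 15.4 and 17.6 CPM in siCon (0.97 ± 0.08, adjusted p = 0.000149). In all 3 genes the lowest siCebpa library exceeded the highest siCon library by more than the spread within either group.

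The neighbouring steps moved less. In ER-associated degradation 4 of 21 measured genes rose (19.0%, against 8.73% of all genes), with a median of 0.135. Among them, Derl3, a channel component that exports misfolded proteins, had 10.4, 11.3 and 10.0 CPM in siCebpa against 0.555, 1.05 and 1.49 CPM in siCon (3.35 ± 0.30, adjusted p = 0.000165). In the translocon and vesicle export list 7 of 28 rose and 3 fell (median 0.130), with 2 rises without mouse 3's siCebpa or siCon library, 3 without mouse 2's siCebpa library and 4 without mouse 2's siCon library. A single fall was left without mouse 2's or mouse 3's siCebpa library or mouse 3's siCon library. Of the falls, Kdelr2, a receptor that returns ER proteins from the Golgi, had 85.3, 81.8 and 77.1 CPM in siCebpa against 122, 119 and 117 CPM in siCon (-0.55 ± 0.06, adjusted p = 0.000522). Among 27 sensors and effectors of the unfolded protein and integrated stress responses 3 rose, a share near the background. They were Eif4ebp1, a translation repressor, at 0.52 ± 0.08 (adjusted p = 0.00287), Nupr1 at 0.60 ± 0.13 and Sesn2 at 0.46 ± 0.14. Ddit3, which also rose, was counted with the C/EBP family and is not a member of this list. In this list 1 was called without mouse 2's siCebpa library, without mouse 2's siCon library, or without mouse 3's siCon library.

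The promoter windows of these genes were read because the ER stress element, the site of ATF6 and its partner NF-Y, is known from this gene set. The motif, CCAAT, then any 9 bases, then CCACG, was searched on both strands in RefSeq promoter windows of build GRCm38.p6, from 250 bases before to 50 after the gene start. It occurred in 37 of 27025 genes (0.137%). Among searched genes it was in 6 of 999 that rose (0.601%), 0 of 928 that fell and 13 of 8817 that were tested and not called (0.147%). In the ER chaperone list it was in 7 of 21 genes with a window (33.3%). Of the 12 of these genes that rose, 4 held it, the same share (33.3%). The windows of the 5 genes of the folding and degradation lists that rose are shown on the gene strand with the motif in capitals, for Derl3, Creld2 and 1 of the Hsp90b1 sites as its reverse complement.
Hspa5, chr2:34772014-34772054, plus strand: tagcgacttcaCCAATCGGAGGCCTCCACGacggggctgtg
Pdia6, chr12:17266480-17266520, plus strand: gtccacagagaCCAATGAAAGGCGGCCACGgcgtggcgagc
Hsp90b1, chr10:86705627-86705667, minus strand: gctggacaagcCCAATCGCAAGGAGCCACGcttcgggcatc
Hsp90b1, chr10:86705522-86705562, minus strand: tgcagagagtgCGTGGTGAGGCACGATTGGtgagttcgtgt
Creld2, chr15:88819509-88819549, plus strand: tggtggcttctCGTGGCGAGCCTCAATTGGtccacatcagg
Derl3, chr10:75893231-75893271, plus strand: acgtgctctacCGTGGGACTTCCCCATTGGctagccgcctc

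The same motif stood in Calr, Canx, Dnajc3 and Syvn1, which were not called. The antioxidant response element, TGACNNNGC on either strand, was in 19.7% of genes that rose, 17.1% of those that fell and 16.6% of those not called, against 14% of all genes with a window. It was in 10 of 26 searched genes of the NRF2 list. A C/EBP motif, TTGCNNAA, was in 9.81% of genes that rose, 10.3% of those that fell and 10.4% of those not called, which lies near the 12.2% of all genes with a window. In lists described below it was in 31.2% of complement, 41.7% of coagulation, 52.2% of acute phase, 45.5% of carrier and 23.8% of apolipoprotein genes with a window. Of those that fell, 1 of 5, 2 of 6, 2 of 5, 1 of 4 and 2 of 3 held it. It was in 2 of 15 genes known to depend on C/EBPα. The amino acid response element, TGATGNAA, was in 2.70% of genes that rose, 2.59% of those that fell and 2.78% of those not called.

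By the same rule, the largest falls after Cebpa were in a mixed set of genes. Bhmt, Mki67, Sult2a1 and Serpina7 fell more than some of them but were not called without the block. They are given below with their lists. Prg4, which encodes the secreted proteoglycan lubricin, had 13.3, 8.4 and 7.88 CPM in siCebpa against 46.3, 62.1 and 89.0 CPM in siCon (log2 -2.69 ± 0.33, adjusted p = 0.000711). Vim, the intermediate filament protein vimentin, had 163, 248 and 325 CPM in siCebpa against 465, 957 and 981 CPM in siCon (-1.70 ± 0.16, adjusted p = 0.000222). For Vim the groups did not overlap, and mouse 1 was the lowest in each. The gene 2310022B05Rik had 16.4, 17.0 and 15 CPM in siCebpa against 50.8, 65.8 and 64.7 CPM in siCon (-1.89 ± 0.11, adjusted p = 8.11e-06).

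Cdc40, a splicing factor, had 12.7, 11.2 and 9.03 CPM in siCebpa against 33.2, 29.7 and 32.7 CPM in siCon (-1.55 ± 0.11, adjusted p = 4.4e-05). Git1, a scaffold protein that regulates ARF GTPases, had 50.9, 59.3 and 52.3 CPM in siCebpa against 118, 156 and 142 CPM in siCon (-1.35 ± 0.09, adjusted p = 4.4e-05). Sgk3, an endosomal kinase, had 13.3, 13.5 and 9.07 CPM in siCebpa against 25.4, 27.7 and 28.1 CPM in siCon (-1.19 ± 0.12, adjusted p = 0.000248). In these 3 genes every siCebpa library lay below every siCon library.

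Bmf, a pro-apoptotic BH3-only protein, changed by -1.24 ± 0.18, Apon, a mouse apolipoprotein gene, by -1.24 ± 0.21, Glipr2 by -1.17 ± 0.14 and AI661453 by -1.14 ± 0.18. Rps10, a ribosomal protein gene, had 259, 167 and 134 CPM in siCebpa against 466, 439.7 and 397 CPM in siCon (-1.27 ± 0.12, adjusted p = 0.000248). Rps10 shares sequence with the readthrough transcript RPS10-NUDT3, and overlaps Gm15420 on the other strand, so its value is uncertain. Of the 24 genes at the 2 ends, 22 remained called in all 6 fits that left out 1 library. All 24 had been chosen as called with and without the block and with 1 sign in every mouse. That choice favours staying called when a library is left out, so the count is a description and not a test of stability.

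The other 2 arms give further levels for these genes. The falls were chosen for low and the rises for high values in the same siCebpa libraries. That choice shifts them the same way against any other group, so the counts here are a description. Of the 12 largest falls, Cebpa included, 7 were lower in siCebpa than in the double knockdown, 1 was higher, and 8 were lower than in siHnf4a. Of the 12 largest rises, 7 were lower in siCebpa than in the double knockdown and 2 higher, with the same counts against siHnf4a. Of all genes 13.0% were lower and 14.3% higher in siCebpa than in the double knockdown. Against siHnf4a these shares were 14.9% and 16.3%. Cdc40 averaged 11 ± 1.85 CPM in siCebpa, against 27.3 ± 1.73 in the double knockdown, 28.5 ± 2.84 in siHnf4a and 31.9 ± 1.92 in siCon. Git1 averaged 54.1 ± 4.49 CPM in siCebpa, against 114 ± 2.53 in the double knockdown, 112 ± 13.5 in siHnf4a and 139 ± 19.2 in siCon. Both genes were lower in the single knockdown than in the double knockdown, which also received the Cebpa siRNA.

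The gene 2310022B05Rik was likewise lower in siCebpa than in the double knockdown (log2 -1.57 ± 0.11, adjusted p = 8.4e-06), as were Sgk3 (-1.76 ± 0.12, adjusted p = 8.28e-06), Rps10 (-1.11 ± 0.12, adjusted p = 0.000148) and Vim (-1.13 ± 0.16, adjusted p = 0.000573). Cebpa was the other gene of the 7. In contrast Prg4 averaged 9.87 ± 3.0 CPM in siCebpa and 10.8 ± 5.71 in the double knockdown, and Glipr2 16.4 ± 5.72 and 14.1 ± 4.44. Their differences, -0.06 ± 0.34 and 0.21 ± 0.14, did not pass the test. Apon was higher in siCebpa, at 11.3 ± 1.80 CPM against 4.26 ± 0.543 in the double knockdown (1.40 ± 0.23, adjusted p = 0.00137). The amount of each siRNA in the double knockdown is not given in the sources used here, and whether the shallower Cebpa knockdown there bears on these differences was not tested.

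**Figure D3:**
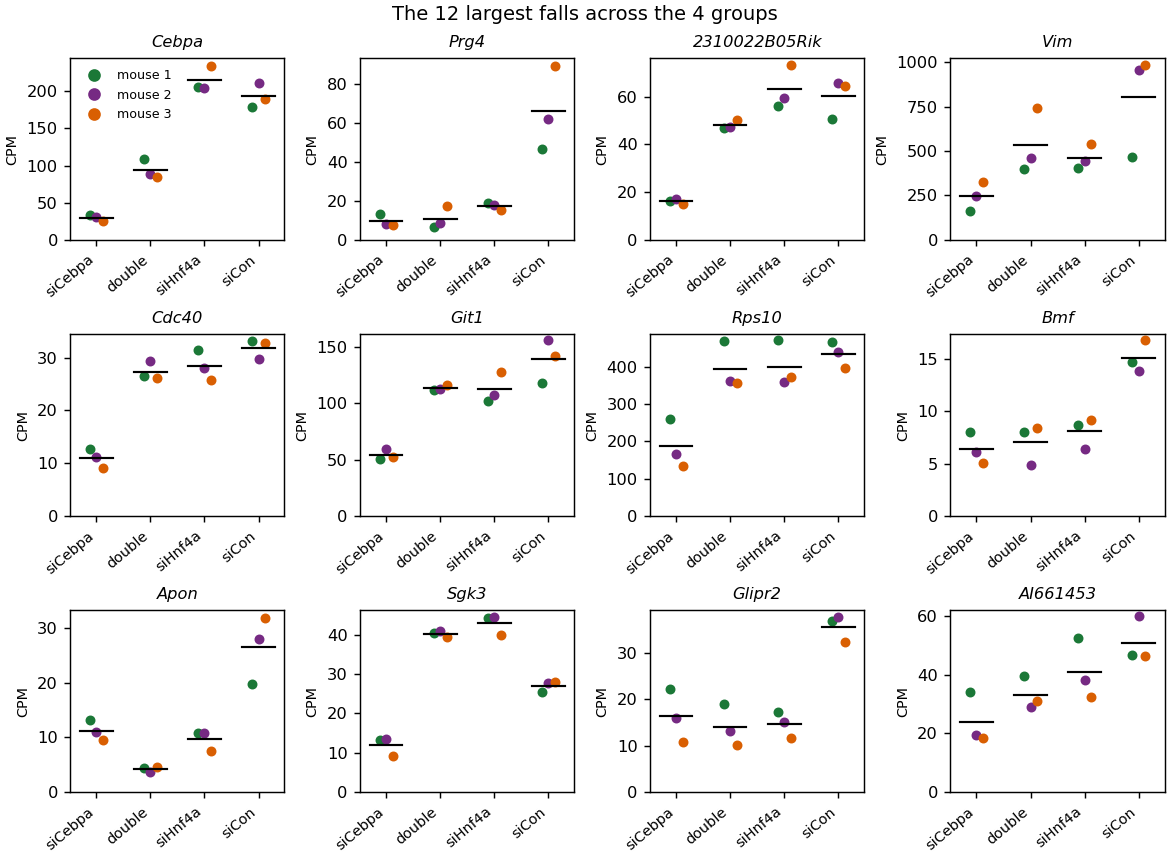
CPM of the 12 genes with the largest falls in every library of the 4 groups, coloured by mouse, with the group mean as a bar. Only genes called with and without the mouse block and averaging at least 10 CPM were eligible. Cebpa, 2310022B05Rik, Cdc40, Git1, Rps10 and Sgk3 are low in siCebpa and higher in the double knockdown, whereas Prg4, Bmf and Glipr2 are at similar levels in both.

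A short word in the 3′ UTR went with the falls. Words of 7 bases were ranked by the difference in log2 fold change between genes with and without the word, relative to its error and adjusted for UTR length and GC content, over 12914 genes with a 3′ UTR in the GENCODE M21 transcripts (GRCm38). Genes are not independent, so the rank is a description without a test. Of 13929 words, CACCTAC ranked 1 toward lower values in siCebpa. The 855 genes that hold it had a median log2 fold change of -0.131, against -0.008 for the genes without it. The difference adjusted for UTR length and GC content was -0.086. The word was in 13.4% of the genes that fell, 3.93% of those that rose, 6.17% of those not called and 6.62% of all. With 2 or more copies (68 genes) the median was -0.164, and with 1 copy (787 genes) -0.121. The medians and shares given here are not adjusted for UTR length or GC content, so they do not show an effect of copy number. When the word was followed by A (267 genes, a split chosen after the values were seen), the median was -0.190 and 22.5% of the genes fell, against 8.48% of the 12059 genes without the word.

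Among the 12 largest falls, 5 hold the word, the target Cebpa among them. The word was chosen on these same fold changes, so this count is no separate evidence. The sites are printed to show the sequence around it, with the 7-base word in capitals and 10 bases on either side, written as DNA on the transcript strand. Cdc40 holds 12 copies in a repeat, and the copy at base 460 of its UTR is given.
Cebpa (chromosome 7): tttgcacctcCACCTACatcccccccc
2310022B05Rik (chromosome 8): accctccatgCACCTACaggatgctaa
Cdc40 (chromosome 10): cacctacagtCACCTACagtcacctac
Git1 (chromosome 11): tcactacctgCACCTACagtgacccac
Sgk3 (chromosome 1): gaatgtgtgtCACCTACacattctaac

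Against the double knockdown the word ranked 28, with medians of -0.064 with the word and 0.022 without it, but that comparison reuses the siCebpa libraries on which the word was chosen. Between the double knockdown and siHnf4a, which share no library with the main comparison, it ranked 9874, and both medians were 0.006. Cebpa was less reduced in the double knockdown than in siCebpa, and whether that bears on this rank was not tested. No mature mouse miRNA in the RefSeq table, of 1738, has a seed complementary to the word. The siRNA sequence is not given in the sources used here, so whether its seed matches the word was not tested.

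**Figure D4:**
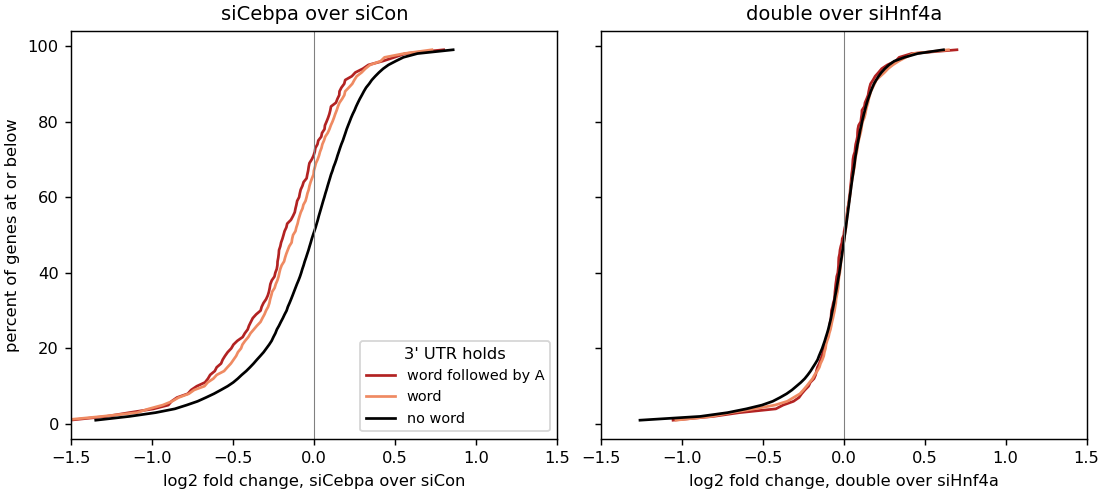
Percent of genes at or below each log2 fold change for genes whose 3′ UTR holds the word, holds it followed by A, or lacks it. In siCebpa over siCon (left) the 2 curves with the word lie left of the curve without it, while in the double knockdown over siHnf4a (right) the 3 curves have the same centre.

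Of 23 measured genes known to depend on C/EBPα in liver, 3 fell (13%, against 8.11% of all genes) and the list median was -0.623. All 3 calls (Otc, Cps1 and Tat) were lost without the block. Otc, of the urea cycle, had 1.25, 0.772 and 0.974 CPM in siCebpa against 1.90, 2.46 and 3.32 CPM in siCon (-1.33 ± 0.27, adjusted p = 0.00822, 0.0549 without the block). Cps1, the enzyme of the first step of that cycle, had 130.2, 77.5 and 21.8 CPM in siCebpa against 170.2, 205 and 82.8 CPM in siCon. It was lower within each mouse, but the groups overlapped (-1.17 ± 0.26, adjusted p = 0.0127, 0.436 without the block). Leaving out mouse 3's siCebpa library ended all 3 calls. The count of falls was 10 and 5 without the siCebpa and siCon libraries of mouse 1, 1 and 2 without those of mouse 2, and 1 without mouse 3's siCon library.

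In the list of urea cycle and amino acid catabolism 10 of 52 genes fell (19.2%) and 4 rose (7.69%), against 8.11% and 8.73% of all genes (median -0.117). Without the block 2 fell and 1 rose. Bhmt, which remethylates homocysteine from betaine, had 19.4, 33.0 and 10.6 CPM in siCebpa against 76.0, 107 and 46.4 CPM in siCon (-1.93 ± 0.20, adjusted p = 0.000319, 0.1 without the block). Hgd, of tyrosine breakdown, had 6.87, 5.45 and 4.60 CPM in siCebpa against 11.4, 12 and 9.99 CPM in siCon (-0.99 ± 0.14, adjusted p = 0.0014). The count of falls was 5 without mouse 3's siCon library, and the rises were between 0 and 2 whichever library was left out.

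Secreted plasma proteins gave lists with medians below 0 and few calls that held. Complement had 9 falls in 23 genes (median -0.556), coagulation 7 in 28 (-0.376), acute phase proteins 6 in 28 (-0.495), plasma carriers and protease inhibitors 5 in 28 (-0.185) and apolipoproteins 6 in 30 (-0.242). Leaving out a library of mouse 1, siCebpa or siCon, gave 8 to 11 falls in complement, 8 to 11 in coagulation, 4 to 12 in acute phase, 7 in carriers and 8 in apolipoproteins. Leaving out any 1 library of mouse 2 or mouse 3 gave 2 to 4, 3 to 4, 0 to 1, 3 to 5 and 1 to 3 falls in the same order. Without the block they were 1, 1, 0, 1 and 2.

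F11, coagulation factor XI, had 24.4, 19.9 and 18.6 CPM in siCebpa against 32.3, 36.7 and 47.5 CPM in siCon (-0.89 ± 0.15, adjusted p = 0.00395). Serpina7, thyroxine-binding globulin, had 344, 172 and 53.6 CPM in siCebpa against 485, 464 and 443 CPM in siCon (-1.61 ± 0.35, adjusted p = 0.0108, 0.209 without the block). Mup3, a major urinary protein, had 70.7, 108 and 68.8 CPM in siCebpa against 126, 194 and 222 CPM in siCon (-1.13 ± 0.18, adjusted p = 0.00266), although members of that family are close in sequence. The most abundant members did not pass the test. Complement C3 averaged 4734 ± 1768 CPM in siCebpa and 6073 ± 1108 in siCon, transferrin (Trf) 15729 ± 1741 and 18040 ± 3776, and haptoglobin (Hp) 2996 ± 968 and 5024 ± 451.

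In these 5 lists 4 genes rose, namely Cpb2, Apoa2, Apoc1 and Fetub. The share that rose was at most 6.67% of a list, against 8.73% of all genes. Cpb2, the carboxypeptidase that slows clot lysis, had 286, 241 and 300.2 CPM in siCebpa against 141, 93.8 and 118 CPM in siCon (1.22 ± 0.18, adjusted p = 0.00168). Apoa2, an apolipoprotein of high-density lipoprotein, had 66.3, 46.2 and 72.0 CPM in siCebpa against 36.1, 28.8 and 18.7 CPM in siCon (1.15 ± 0.23, adjusted p = 0.00752, 0.0731 without the block). Apoc1, another apolipoprotein, changed by 0.83 ± 0.15 (adjusted p = 0.00479, 0.11 without the block), and Fetub, fetuin-B, by 0.38 ± 0.10 (adjusted p = 0.0285, 0.393 without the block).

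Of 40 measured liver transcription factors 9 fell (22.5%) and 2 rose (5.0%), against 8.11% and 8.73% of all genes (median -0.150). Foxa3, a pioneer factor, had 17.3, 20.5 and 22.5 CPM in siCebpa against 27.5, 35.8 and 44.9 CPM in siCon (-0.83 ± 0.15, adjusted p = 0.00457). Creb3l3, a membrane-bound factor of fasting metabolism, had 33.4, 27.0 and 30.8 CPM in siCebpa against 47.3, 52.6 and 65.8 CPM in siCon (-0.87 ± 0.19, adjusted p = 0.0118). Nr5a2, a nuclear receptor of bile acid and cholesterol metabolism, changed by -0.63 ± 0.12 (adjusted p = 0.00556, 0.0917 without the block). The count of falls was 4 without mouse 2's siCebpa library, and 5 without mouse 3's siCebpa or siCon library.

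Of 45 cytochrome P450 and reductase genes 6 rose and 6 fell (13.3% each way, median -0.365), against 8.73% and 8.11% of all genes. Without the block 4 rose and 1 fell. Besides Cyp2a4 and Cyp2a5, Cyp2b10, a target of the xenobiotic receptor CAR, had 83.6, 99.4 and 61.4 CPM in siCebpa against 39.0, 56.8 and 15.0 CPM in siCon (1.29 ± 0.18, adjusted p = 0.00159, 0.207 without the block). In phase II, Ugt2b35, a glucuronosyltransferase, had 221, 201 and 229 CPM in siCebpa against 100, 87.3 and 101 CPM in siCon (1.18 ± 0.10, adjusted p = 0.00016). In the P450 and reductase list the count of falls was 14 without mouse 1's siCebpa library. It was 1 to 3 without any 1 library of mouse 2 or mouse 3, while 5 or 6 rose in each of these fits. Sult2a1, which sulfates bile acids and steroids, had 12.7, 19.0 and 9.47 CPM in siCebpa against 39.8, 42.4 and 47.2 CPM in siCon (-1.75 ± 0.36, adjusted p = 0.00913, 0.0804 without the block).

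**Figure D5:**
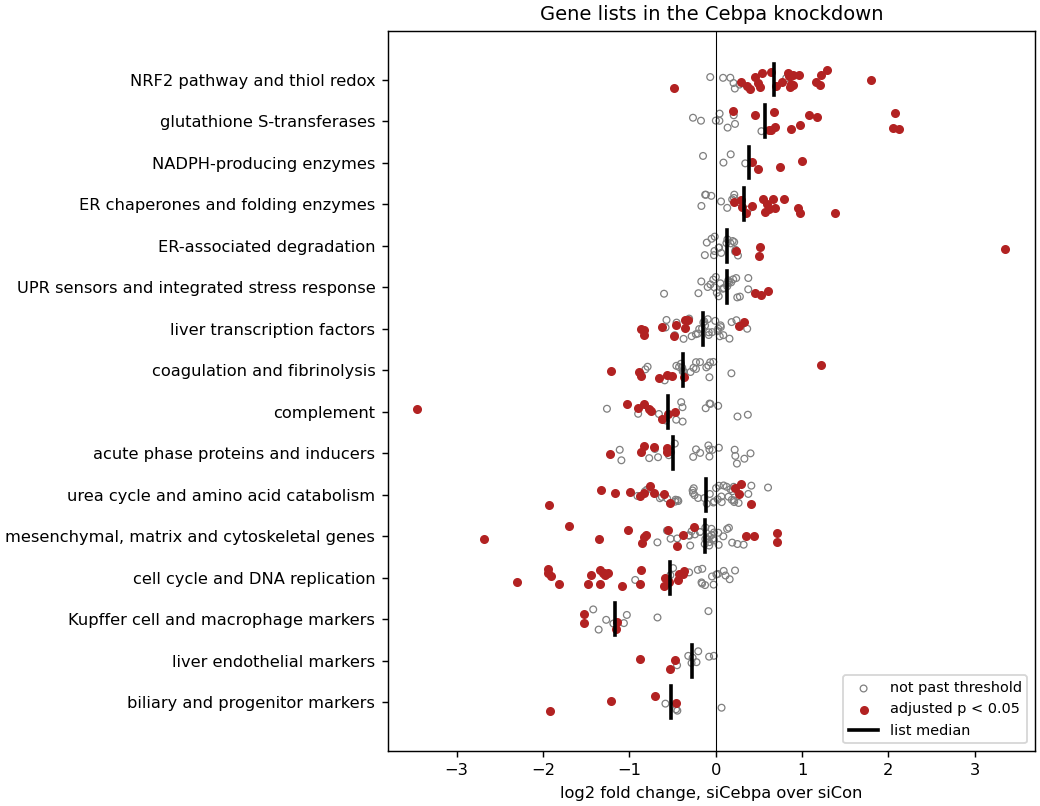
Log2 fold change of siCebpa over siCon for every measured gene of 16 lists, filled where called, with the list median as a bar. The lists of NRF2 pathway and thiol redox, glutathione S-transferases and ER chaperones sit right of 0 with most members called, and the cell cycle and Kupffer cell lists sit left of it.

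Of 40 measured cell cycle genes 23 fell (57.5%, against 8.11% of all genes), with a list median of -0.531, and 6 lay above 0. Ccnb1, the mitotic cyclin B1, had 0.432, 2.02 and 2.48 CPM in siCebpa against 2.42, 9.80 and 11.3 CPM in siCon (-2.30 ± 0.20, adjusted p = 0.00016). Mki67, a marker of cycling cells, had 1.51, 11.7 and 12.3 CPM in siCebpa against 7.06, 37.2 and 39.2 CPM in siCon (-1.82 ± 0.22, adjusted p = 0.000664). Mouse 1 was low in both groups, which made the groups overlap, and without the block none of the 40 was called. With the block, the count was 14 without mouse 3's siCebpa library or mouse 2's siCon library. The cyclin-dependent kinase inhibitor Cdkn1a averaged 495 ± 12.9 CPM in siCebpa and 487 ± 19.6 CPM in siCon (0.02 ± 0.07, adjusted p = 0.855).

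Some markers of Kupffer, endothelial and biliary cells fell. In bulk RNA, fewer cells of a type and less RNA per cell cannot be told apart. All 12 measured Kupffer cell and macrophage markers were below 0 (median -1.17), and 4 fell (33.3%, against 8.11% of all genes). Their summed level was 60 to 371 CPM in siCebpa and 84.6 to 264 CPM in siCon, nearly all of it Cd68, which hepatocytes can also express. The defining markers Clec4f, Vsig4, Adgre1 and Marco were each under 2 CPM in every library of both groups, and Clec4f was at 0 in 1 siCebpa library. No Kupffer call was left without mouse 1's siCebpa library. The fall count was 1 without the siCon library of mouse 2 or mouse 3, 2 without mouse 3's siCebpa or mouse 1's siCon library, 1 without the block and 2 with DESeq2.

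Of 8 measured biliary and progenitor markers 4 fell (median -0.522), and 2 did without mouse 3's siCon library. Their summed level was 130 to 185 CPM in siCebpa and 174 to 352 CPM in siCon, and Krt7 was under 0.4 CPM throughout. Spp1, osteopontin, had 16, 75.6 and 89.8 CPM in siCebpa against 43.8, 147 and 207 CPM in siCon (-1.21 ± 0.13, adjusted p = 0.000387, 0.514 without the block). Sox9, a progenitor transcription factor, had 15.5, 28.0 and 30 CPM in siCebpa against 29.5, 45.4 and 43.9 CPM in siCon (-0.70 ± 0.16, adjusted p = 0.014, 0.127 without the block). Endothelial markers summed to 80.0 to 137 CPM in siCebpa and 107 to 168 CPM in siCon. Of these 3 of 11 fell (27.3%, median -0.280), of which 1 fell without mouse 3's siCon library and none without the block. No stellate or fibroblast marker of 14 was called by edgeR (median -0.287). At an unadjusted p under 0.05, 2 of them were lower, DESeq2 called 1 lower, and 2 were called without mouse 2's siCon library. They summed to 179 to 389 CPM in siCebpa and 249 to 404 CPM in siCon. The part of these cells in the falls of cell cycle and matrix genes was not tested.

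Among mesenchymal, matrix and cytoskeletal genes 11 of 47 fell (23.4%) and 4 rose (8.51%), against 8.11% and 8.73% of all genes (median -0.120). Without the block 5 fell and 1 rose. The falls, beside Vim, Prg4 and Git1, included the most abundant matrix gene, Fn1 (fibronectin), with 2473, 2492 and 2500 CPM in siCebpa against 3624, 5803 and 5702 CPM in siCon (-1.01 ± 0.17, adjusted p = 0.00368). The count was 7 falls without mouse 1's siCebpa library or mouse 3's siCon library, and 2 rises without any 1 library of mouse 2 or mouse 3. Ctnnd1, which anchors cadherins at junctions, had 342, 397 and 305 CPM in siCebpa against 442, 573 and 514 CPM in siCon (-0.55 ± 0.08, adjusted p = 0.00209). Npas2, a circadian activator, had 6.09, 5.49 and 6.42 CPM in siCebpa against 11.9, 14.6 and 14.6 CPM in siCon (-1.19 ± 0.12, adjusted p = 0.000273).

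Set directly against the Hnf4a knockdown, siCebpa was higher in 2466 genes (16.3%) and lower in 2246 (14.9%). Against the double knockdown it was higher in 2157 (14.3%) and lower in 1964 (13.0%). Cyp2a12 averaged 85.4 ± 39.1 CPM in siCebpa, against 2.56 ± 0.647 in the double knockdown and 3.47 ± 1.97 in siHnf4a. Mup20, another major urinary protein, averaged 133 ± 71.6 CPM in siCebpa, against 1.39 ± 1.15 in the double knockdown and 3.60 ± 3.27 in siHnf4a (log2 difference from siHnf4a 5.27 ± 0.36, adjusted p = 1.07e-05). Serpinf2, α2-antiplasmin, averaged 150.3 ± 58.5 CPM in siCebpa, against 7.49 ± 1.09 in the double knockdown and 14.7 ± 2.20 in siHnf4a. Adh7, an alcohol dehydrogenase, rose against siCon but was lower than in the other knockdowns. It averaged 3.02 ± 0.953 CPM in siCebpa, against 55.8 ± 26.5 in the double knockdown and 59.3 ± 19.9 in siHnf4a. Its difference from siHnf4a was -4.29 ± 0.15 (adjusted p = 2.12e-07).

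Redox genes differed both ways from the arms that received the Hnf4a siRNA. Of the 30 genes of the NRF2 list, 12 were lower in siCebpa than in siHnf4a and 6 higher, and 15 were lower than in the double knockdown and 4 higher. Srxn1 averaged 1054 ± 79.3 CPM in siCebpa, against 1917 ± 228 in the double knockdown and 1802 ± 226 in siHnf4a. Among the 22 glutathione S-transferases 12 were lower in siCebpa than in siHnf4a. Ftl1 differed, at 6143 ± 973 CPM in siCebpa against 1781 ± 161 in the double knockdown and 1557 ± 57.4 in siHnf4a (log2 1.97 ± 0.12 from siHnf4a, adjusted p = 4.37e-06). Hspa5 averaged 1018 ± 43.6 CPM in siCebpa, 1104 ± 73.9 in the double knockdown and 999 ± 90.1 in siHnf4a, and neither difference passed the test. Alb was higher in siCebpa than in the double knockdown by 0.66 ± 0.16 on the log2 scale (adjusted p = 0.0127), at 8879 ± 4366 CPM against 5453 ± 1870 CPM.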

How the data were processed

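RNA from 12 libraries of mouse primary hepatocytes was sequenced on a BGISEQ-500, per the labels' protocols. The authors deposited expected counts (estimated, partly fractional, not normalised) and TPM per gene. Reads went through Trim Galore 0.6.4 and kallisto 0.4.6, with build GRCm38.p6, as the submitters' processing notes list them. Which annotation and strand setting they chose is not given here, so genes on opposite strands cannot be told apart. Of 55385 identifiers, 54487 matched GENCODE M21 with their version number and 55144 when it was ignored, and 241 stayed without a symbol.

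After rounding to whole numbers, the counts entered edgeR 4.0.16 (R 4.3.3). The steps were filterByExpr over the groups (cutoff 0.42 CPM), TMM scaling (factors 0.947 to 1.04) and a quasi-likelihood fit of all 12 libraries with group and mouse (6 residual degrees of freedom). P-values were two-sided and adjusted by Benjamini-Hochberg over 15090 genes. Mouse was a block because the design text names 3 mice and the titles carry the numbers MPH1 to MPH3, read here as the mouse. Deviations of libraries from 1 mouse correlated at r = 0.156 to 0.684 in 18 pairs, and 12 of 12 libraries correlated best with their own mouse. Intervals are 95% from the fit. The fit was also tested on simulated data.

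Alternatives were no block, only the compared groups, RLE size factors, DESeq2 1.42.0, limma 3.58.1 on log2(TPM + 1), other filters, and leaving out each library. The comparison, the 36 gene lists (843 of 883 symbols tested) and the rules were chosen with earlier results of these data known. Genes were named by rule: Cebpa, Hnf4a and Alb; the 12 largest rises and falls called with and without the block, averaging at least 10 CPM, with 1 sign in 3 mice; up to 5 called members per list with its most abundant; the C/EBP family; and the 5 largest each way against siHnf4a and the double knockdown. Other list members are given as counts. The listed symbols Hm13, Cyp2c44, Cyr61 and Ctgf matched no gene here. Python 3.11.15 was used for sequences, with promoters from RefSeq and 3′ UTRs of at least 30 bases from GENCODE M21; fold changes beyond 2 log2 units were set to 2 in the word ranking, and words in fewer than 200 genes were left out.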

Additional observations from a re-analysis of the deposited data

How the results depend on the processing

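Of 155 named genes that were called, 90 remained called in all 6 fits that left out 1 library, 66 remained without the mouse block, and none changed sign under any alternative run. The 155 include the largest rises and falls, which were chosen as called with and without the block. That choice can raise these counts. Against siCon, siCebpa was higher in 1318 and lower in 1224 genes; without the block the counts were 444 and 260, with only the 2 compared groups 826 higher, and with only the 6 compared libraries and no block 23 and 22. On log2(TPM + 1) 393 were higher. Leaving out 1 library gave 552 to 1513 higher and 591 to 1323 lower. Against siHnf4a the counts were 2466 and 2246, without the block 1309 and 1133, on TPM 944 higher, and 1370 (without mouse 2's siHnf4a library) to 2422 higher and 1550 to 2228 lower when leaving out 1 library. Against the double knockdown they were 2157 and 1964, without the block 976 and 983, on TPM 786 higher, and without 1 library 1236 (without mouse 3's double knockdown library) to 2011 higher and 1278 (without mouse 3's siCebpa library) to 1878 lower. Differences that did not pass the test changed sign: Alb was -0.075 on TPM, and from -0.075 to 0.231 when 1 library was left out; Cebpb was -0.103 on TPM, and -0.003 (without mouse 2's siCebpa library) to 0.141 when 1 library was left out; Hnf4a was 0.092 without mouse 2's siCebpa library, 0.005 and 0.050 without the siCon libraries of mouse 2 and mouse 3, and down to -0.40 without mouse 1's. RLE size factors, DESeq2 and the other filters kept the counts within 1.5 times. The cause of these shifts was not tested. Precision is limited by 3 mice per group and by low counts in the cell cycle and Kupffer cell genes.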

Other observations

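Of 13 measured mitochondrially encoded genes of oxidative phosphorylation, edgeR called none (none at an unadjusted p under 0.05, and none with DESeq2), with a median of 0.148. In 31 genes of lipogenesis and cholesterol synthesis 2 rose and 1 fell (median 0.0334), and in 32 interferon response genes 2 rose and 1 fell (median -0.0365), shares below the 8.73% and 8.11% of all genes. The interferon exception with the largest rise was Cxcl10, a chemokine, with 3.20, 8.88 and 7.88 CPM in siCebpa against 1.79, 3.51 and 4.46 CPM in siCon (log2 1.02 ± 0.17, edgeR adjusted p = 0.00354, 0.299 without the block). Among 25 genes of bile acid synthesis and transport 3 fell and 2 rose. Those that rose were both efflux pumps of the ABCC family that are also in the NRF2 list. Abcc4 had 193, 266 and 485 CPM in siCebpa against 134, 141 and 221 CPM in siCon (0.84 ± 0.14, edgeR adjusted p = 0.00266, 0.266 without the block). The uptake transporter Slc10a1 had 2.20, 1.07 and 0.310 CPM in siCebpa against 4.21, 4.76 and 2.25 CPM in siCon (-1.78 ± 0.37, edgeR adjusted p = 0.00905, 0.196 without the block). The other lists, beside 8.11% of all genes that fell, had 3 falls and 1 rise in 30 genes of fatty acid oxidation (median -0.0214), 3 falls and 2 rises in 33 of glucose metabolism (median -0.137), 4 falls (21.1%) and 2 rises in 19 clock genes (median -0.115), 4 falls (17.4%) in 23 junction genes (median -0.145), 4 falls (18.2%) in 22 YAP and serum response targets (median -0.0664) and 1 fall in 16 genes of the growth hormone axis (median -0.267). In the list of interleukin-1, chemokines and NF-kB 6 of 30 fell (20.0%) and 2 rose (median -0.352), with 1 to 5 falls whichever library was left out. Without the block the clock, junction and YAP lists each had 1 fall, and the interleukin-1 list had no fall with edgeR, against 11 at an unadjusted p under 0.05 with the block and 7 with DESeq2.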
